A study of Mus musculus with 18 samples.

Results

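Haemoglobin and erythroid genes were examined in whole-liver RNA of mice given monocrotaline, a plant pyrrolizidine alkaloid. The 9 genes were chosen by name: the globins Hbb-bs and Hba-a1, the haem enzyme Alas2, the carbonic anhydrase Car1, the cholesterol-binding protein Tspo2, the transcription factor Klf1, the membrane proteins Slc4a1 and Epb42, and the alpha-globin chaperone Ahsp. A probe was taken as a gene's when its systematic name mapped to that symbol. Probes matched 8 of the 9 genes, and 7 passed the filter on dim signals, of 24817 genes tested in all. Ahsp was not analysed here, and Epb42 is described below but was not tested.

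All groups were male C57BL/6 mice aged 6 weeks, fasted for 12 h and killed 48 h after a single oral dose. The control group received saline, and the other groups received monocrotaline at 270 mg/kg (MCT 270) or 330 mg/kg (MCT 330), with 8 mice per group in the study. Messenger RNA was read on 9 single-colour arrays and microRNA (miRNA) on another 9 arrays, whose labels name those 9 mice again, with 3 mice to a group. The liver label fitted its markers, since the 5 hepatocyte genes Alb, Apoa1, Ttr, Serpina1a and Fgb were well above background on all arrays.

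Levels are given as log2 signal relative to the 75th percentile of signal on the same array, so 0 is the level of that percentile. The 75th percentile ranged from 498.2 to 703 intensity units, and 63.0% to 80.3% of probes were well above background. The 9 mRNA arrays stood for 5 distinguishable samples. Replicates 2 and 3 of the control, replicates 2 and 3 of MCT 270, and the 3 replicates of MCT 330 differed on average by less than repeated spots of a probe on 1 array (mean ratios 0.447, 0.418 and 0.521 to 0.919), and each set was counted as 1 sample. The separate pairs had ratios of 2.62 to 3.18. The join of MCT 330 replicate 1 is the least certain. The p-values cover no more than the spread among these samples. For the lone MCT 330 sample, the spread of the remaining groups is assumed. MCT 330 arrays were scanned apart from all others, so this group and its scans cannot be told apart.

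Red cells carry oxygen on haemoglobin, a tetramer of alpha and beta chains that each bind haem. The chains and the haem pathway are made in erythroblasts under factors such as Gata1 and Klf1, and the messages persist in young circulating red cells. The adult mouse liver makes few red cells in health, and its sinusoids hold circulating blood. In whole tissue, fewer cells of a type and less RNA per cell cannot be told apart.

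The promoters of 2 globins and 2 genes that differed in the opposite direction are shown because these genes ended at opposite sides of the comparison at 330 mg/kg, and the Alas2 promoter is shown beside them. Each run is the 250 bases before the annotated start, read 5′ to 3′ on the gene's strand, from RefSeq on GRCm38.p6. Hbb-bs lies at chr7:103827929-103828178 (minus strand), Hba-a1 at chr11:32283422-32283671 (plus strand), Alas2 at chrX:150547167-150547416 (plus strand), Tspo2 at chr17:48451502-48451751 (minus strand) and Klf1 at chr8:84901732-84901981 (plus strand). Capitals mark the motifs searched on both strands: AGATAA and TGATAA (forms of the GATA motif), CCACACCC (a CACCC box), CCGCCC (a GC box), CCAAT, and TATAAA or CATAAA.
Hbb-bs: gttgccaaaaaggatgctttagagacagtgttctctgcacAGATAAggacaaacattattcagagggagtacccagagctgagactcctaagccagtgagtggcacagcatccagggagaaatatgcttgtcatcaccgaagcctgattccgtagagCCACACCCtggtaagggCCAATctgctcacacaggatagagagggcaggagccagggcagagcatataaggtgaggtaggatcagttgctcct
Hba-a1: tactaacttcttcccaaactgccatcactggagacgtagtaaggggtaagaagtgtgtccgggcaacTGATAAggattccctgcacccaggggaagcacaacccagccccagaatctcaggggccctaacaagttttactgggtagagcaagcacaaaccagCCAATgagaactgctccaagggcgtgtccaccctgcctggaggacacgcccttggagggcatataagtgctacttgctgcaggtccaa
Alas2: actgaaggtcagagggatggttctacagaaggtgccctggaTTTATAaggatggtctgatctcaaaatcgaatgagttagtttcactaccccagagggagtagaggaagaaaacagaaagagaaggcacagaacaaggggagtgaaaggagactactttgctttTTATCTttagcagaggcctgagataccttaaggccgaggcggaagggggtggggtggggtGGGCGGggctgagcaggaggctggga
Tspo2: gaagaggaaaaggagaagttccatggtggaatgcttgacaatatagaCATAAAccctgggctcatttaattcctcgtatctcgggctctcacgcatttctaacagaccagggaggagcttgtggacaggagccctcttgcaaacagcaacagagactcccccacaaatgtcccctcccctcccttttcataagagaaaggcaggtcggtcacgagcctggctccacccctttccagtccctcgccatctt
Klf1: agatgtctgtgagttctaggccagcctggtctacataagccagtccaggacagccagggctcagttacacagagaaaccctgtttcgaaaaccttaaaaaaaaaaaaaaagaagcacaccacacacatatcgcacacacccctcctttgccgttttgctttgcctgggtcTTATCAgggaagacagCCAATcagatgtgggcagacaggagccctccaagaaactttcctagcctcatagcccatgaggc

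The Hbb-bs window held AGATAA at 210 to 205 bases before the start, CCACACCC at 93 to 86 and CCAAT at 76 to 72. The Hba-a1 window held TGATAA at 183 to 178 and CCAAT at 88 to 84. Klf1, whose level was lower at MCT 330, held the same pair of motifs as Hba-a1, with TGATAA on the opposite strand at 80 to 75 and CCAAT at 64 to 60. Alas2 held 3 motifs on the opposite strand, TATAAA at 209 to 204, AGATAA at 86 to 81 and CCGCCC at 26 to 21, and Tspo2 held only CATAAA, at 203 to 198. Among 32851 RefSeq promoter windows of the same length, 9.99% held AGATAA, 7.94% TGATAA, 3.20% CCACACCC, 32.7% CCGCCC, 33.8% CCAAT, 12.4% TATAAA and 10.8% CATAAA. A match is a description of the letters, not a site. The windows of Hba-a1 and of its neighbour Hba-a2 shared a run of 247 identical bases at an offset of 3 bases, and the coding messages of this pair are near-identical too. Their probes, like those of Hbb-bs, Hbb-bt and Hbb-b2, may therefore share signal.

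The first question is how the 2 haemoglobin genes stood in each group. At MCT 330 Hbb-bs, an adult beta-globin chain, was 22.6-fold higher than in control, and Hba-a1, an adult alpha-globin chain, had a value 8.45-fold higher that did not pass the test. The control samples themselves differed widely in both.

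Hbb-bs had log2 levels of -4.93, -2.77 and -2.73 on control arrays 1, 2 and 3. On the MCT 270 arrays they were -1.94, -1.82 and -1.90, and on the MCT 330 arrays 0.66, 0.68 and 0.64. This probe was dim beside that of Hbb-bt, another adult beta-globin gene, which lay at 2.24 and 4.71 in the control samples. How well the Hbb-bs probe reports its message was not tested. By distinguishable sample, both MCT 270 samples lay above both control samples and below the 1 MCT 330 sample for Hbb-bs. The share of all genes with such an order was not counted. The log2 fold change of MCT 330 against control was 4.50 ± 0.89 (SE, n = 1 and 2 samples; 95% interval 2.17 to 6.83; limma, Benjamini-Hochberg adjusted p = 0.0232). Without control replicate 1, the lowest array, it was 3.41. In that fit only the MCT 270 samples, which differed by 0.09 in Hbb-bs, estimate its spread, so no p-value is given.

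Hba-a1 had log2 levels of 2.95, 5.13 and 5.11 on the control arrays, 4.38, 5.44 and 5.46 on the MCT 270 arrays and 7.18, 7.10 and 7.05 on the MCT 330 arrays. The MCT 330 sample was the highest, while MCT 270 replicate 1 lay inside the control range. Its log2 fold change of MCT 330 against control was 3.08 ± 0.99 (SE, n = 1 and 2 samples; 95% interval 0.50 to 5.66; limma adjusted p = 0.0711), and without control replicate 1 it was 1.99 (adjusted p = 0.078). Without the control sample of replicates 2 and 3 it was 4.17, in a fit where only the MCT 270 samples estimate the spread. With normexp and quantile normalization it passed (3.47, limma adjusted p = 0.049).

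The spread between control samples was large for both chains. From replicate 1 to the sample of replicates 2 and 3, Hbb-bs differed by 2.18 on the log2 scale and Hba-a1 by 2.18, against a median absolute difference of 0.25 over 24808 genes. A larger difference between the control samples was seen for 0.887% of genes in the case of Hbb-bs and 0.895% in the case of Hba-a1. The other adult globin probes differed in the same direction between these samples: Hbb-bt by 2.47, Hba-a2 by 1.93 and Hbb-b2 by 2.42. Between the MCT 270 samples Hba-a1 differed by 1.07, Hbb-bt by 1.07, Hbb-b2 by 1.35, Hba-a2 by 0.55 and Hbb-bs by 0.09.

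**Figure D1:**
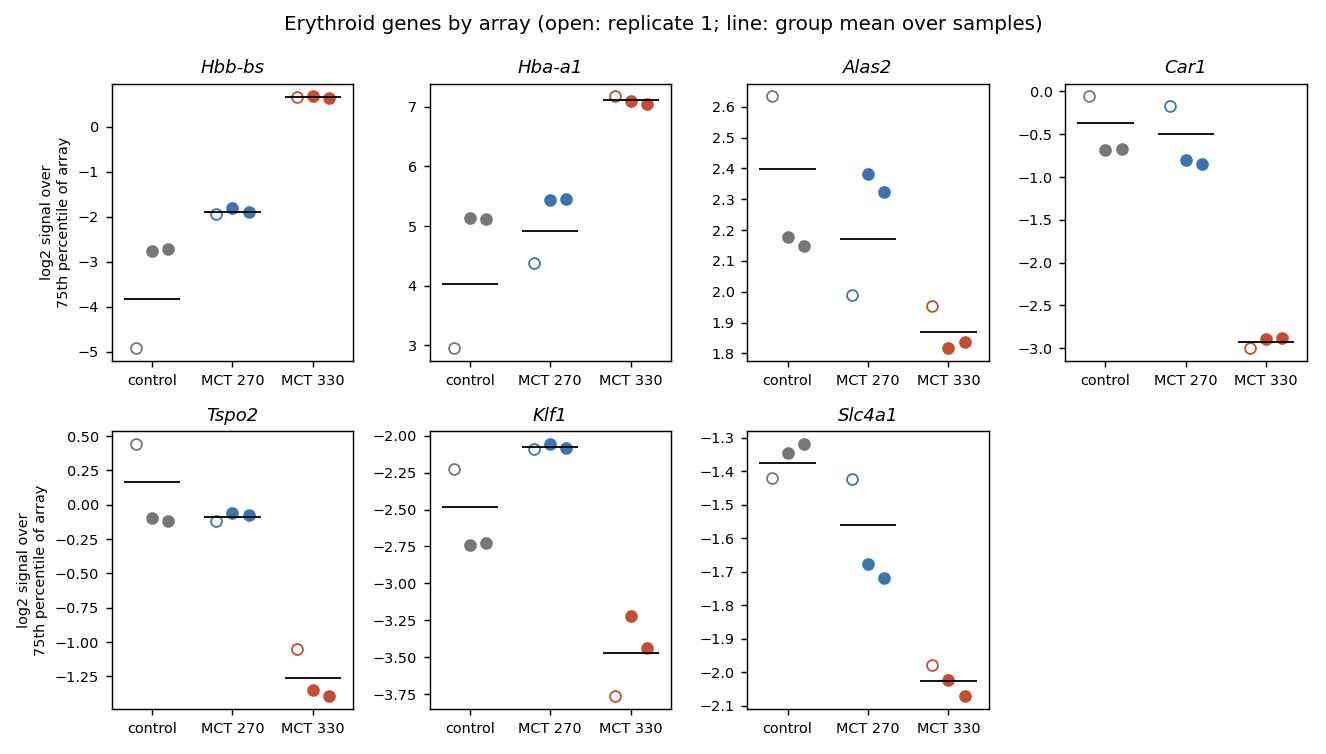
Log2 signal relative to the array's 75th percentile (y axis, a separate scale in each panel) of the 7 tested genes on the 9 mRNA arrays, by group (x axis). Open points are replicate 1, filled points replicates 2 and 3, and lines are group means over distinguishable samples; Hbb-bs is highest at MCT 330 (0.66, 0.68 and 0.64), and Car1 is lowest there (-3.0, -2.90 and -2.88).

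Car1, Tspo2 and Klf1 fell at MCT 330 against control, and Alas2 and Slc4a1 had lower values that did not pass.

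Car1, a cytosolic carbonic anhydrase abundant in red cells, had log2 levels of -0.06, -0.68 and -0.67 in control, -0.17, -0.80 and -0.85 at MCT 270 and -3.0, -2.90 and -2.88 at MCT 330. Control and MCT 270 overlapped, and the 3 MCT 330 arrays, which count as 1 sample, lay below both. The log2 fold change against control was -2.56 ± 0.40 (SE, n = 1 and 2 samples; limma adjusted p = 0.0148). A second Car1 probe ran the same way, from -1.54 in control replicate 1 to -4.96 in the MCT 330 sample.

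Tspo2, a cholesterol-binding membrane protein of maturing erythroid cells, had log2 levels of 0.44, -0.10 and -0.12 in control, -0.12, -0.06 and -0.07 at MCT 270 and -1.05, -1.35 and -1.40 at MCT 330. The MCT 330 sample lay below all others. Its log2 fold change was -1.43 ± 0.29 (limma adjusted p = 0.0236). Leaving out either MCT 270 sample, which leaves fewer samples to estimate the spread, moved the adjusted p to 0.051.

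Klf1, the erythroid factor that drives adult beta-globin transcription, had log2 levels of -2.23, -2.74 and -2.73 in control, -2.09, -2.06 and -2.08 at MCT 270 and -3.76, -3.22 and -3.44 at MCT 330. It was highest at MCT 270 and lowest at MCT 330. Its log2 fold change at MCT 330 against control was -0.99 ± 0.27 (limma adjusted p = 0.0494), but this call ended with quantile normalization (-0.65, adjusted p = 0.108) and with normexp and quantile normalization (-0.41, adjusted p = 0.118). Without control replicate 1 it was -0.74 (adjusted p = 0.060), and without MCT 330 replicate 1 it was -0.85 (adjusted p = 0.072). Without MCT 270 replicate 1, or without the sample of replicates 2 and 3 of that group, the adjusted p was 0.097, and without MCT 270 replicate 2 it was 0.051.

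Alas2, the erythroid form of the first enzyme of haem synthesis, had log2 levels of 2.63 and 2.16 in the 2 control samples, 1.99 and 2.35 in the MCT 270 samples and 1.87 in the MCT 330 sample. The MCT 330 sample was the lowest of the 5, and the difference from control did not pass (log2 fold change -0.53 ± 0.30, limma adjusted p = 0.230; 95% interval -1.31 to 0.26). Slc4a1, the band 3 anion exchanger of the red cell membrane, had log2 levels of -1.42 and -1.33 in control, -1.42 and -1.70 at MCT 270 and -2.03 at MCT 330. The difference at MCT 330 was -0.65 ± 0.22 (limma adjusted p = 0.0783).

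Epb42, a protein that ties band 3 to the red cell skeleton, was not well above background on any control or MCT 270 array and was so on 2 of 3 MCT 330 arrays. Its log2 levels there were -6.28, -5.92 and -6.04, against -7.89, -7.07 and -6.85 in control. No fold is given because only a bound exists in control and that bound is under 1.

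In the comparison of MCT 330 with control 1 of 7 genes was called higher (14.3%) and 3 lower (42.9%), beside 9.5% higher and 23.9% lower among all genes tested, in which 33.4% were called. The genes' median log2 fold change was -0.65, beside -0.25 over all genes. Relative to that shift Hbb-bs lay at 4.75, Hba-a1 at 3.33, Car1 at -2.31, Tspo2 at -1.18 and Klf1 at -0.74. The scaling sets part of this shift: the median over all genes was -0.05 with quantile normalization and -0.03 with normexp and quantile normalization, and the share of called genes that were higher went from 28.4% to 41.8% and 48.6%. With no filter on dim probes, which raised the number of genes tested, Car1 alone of the 4 was called.

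**Figure D2:**
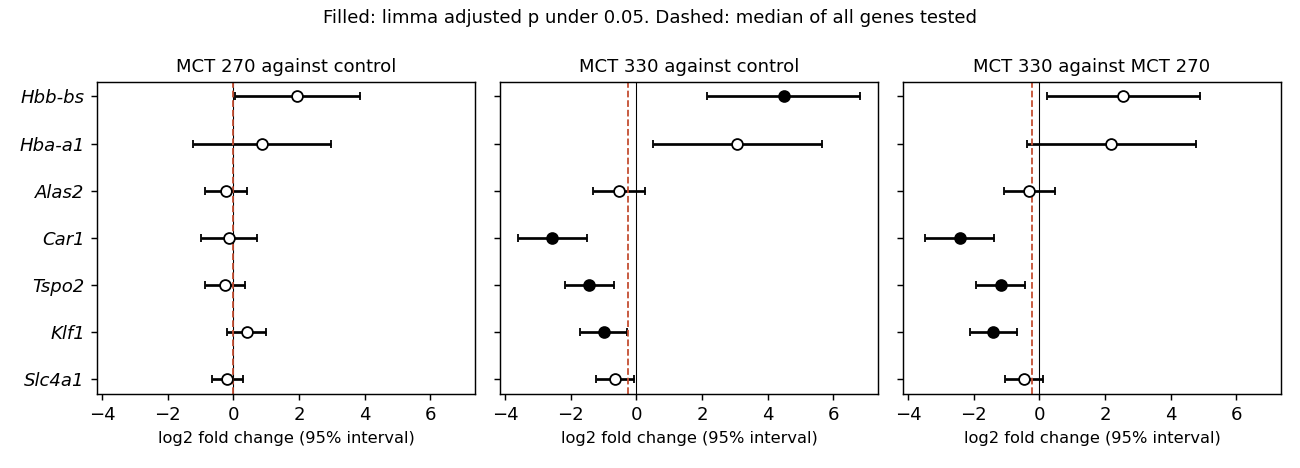
Log2 fold changes with 95% intervals (x axis) of the 7 genes (y axis) in the 3 comparisons; filled points passed limma's test at an adjusted p under 0.05, and the dashed line is the median over all 24817 genes. At MCT 330 against control Hbb-bs lies at 4.50 and Car1 at -2.56, while at MCT 270 no point is filled.

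The lower dose was compared with control next. At MCT 270 the called share was 0 of 7 genes (limma, adjusted p under 0.05), beside 0.0% of all genes tested. At an unadjusted p under 0.05, 1 of the 7 stood out, Hbb-bs, beside 18.6% of all genes. Its log2 fold change was 1.94 ± 0.73 (SE, n = 2 and 2 samples; adjusted p = 0.263). Higher genes with such a p made up 9.8% of all genes. Hba-a1 had a value of 0.88 ± 0.80, Klf1 0.40 ± 0.22, Car1 -0.13 ± 0.33, Slc4a1 -0.19 ± 0.18, Alas2 -0.23 ± 0.25 and Tspo2 -0.26 ± 0.23, none of which passed. Within the scan that held replicates 1 and 2 of both groups the Hbb-bs difference was 1.97, and within the scan that held replicate 3 of both it was 0.83. Without control replicate 1 it was 0.85. The same pair of values was 0.87 and 0.35 for Hba-a1, 0.41 and 0.65 for Klf1, -0.22 and 0.18 for Alas2, and -0.26 and 0.04 for Tspo2.

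Between the doses, 3 of the 7 genes were called, all lower at MCT 330, beside 22.1% called among all genes, 5.02% higher and 17% lower. Car1 differed by -2.43 ± 0.40 (SE, n = 1 and 2 samples; limma adjusted p = 0.0246), Klf1 by -1.40 ± 0.27 (adjusted p = 0.0316) and Tspo2 by -1.17 ± 0.29 (adjusted p = 0.0488). With quantile normalization the Klf1 and Tspo2 calls ended (adjusted p = 0.053 and 0.068), as they did with normexp and quantile normalization (0.060 and 0.074). Leaving out either MCT 270 sample, none of the 3 was called (adjusted p from 0.078 to 0.164), nor was any other gene of all those tested. The Tspo2 call also ended without control replicate 2 (0.052), MCT 270 replicate 2 (0.051), MCT 330 replicate 2 (0.052) or MCT 330 replicate 3 (0.055). Hbb-bs had a difference of 2.56 ± 0.89 (adjusted p = 0.106), which passed with normexp and quantile normalization (0.029). With either control sample left out, only the MCT 270 samples, close together in Hbb-bs, estimate its spread. No p-value is given for those fits. Hba-a1 had a difference of 2.20 ± 0.99 (adjusted p = 0.175). The comparisons with control share the control samples, and those that involve MCT 330 share its 1 sample.

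Other globin genes split in direction. The adult genes Hbb-bt, Hba-a2 and Hbb-b2 had positive values at MCT 330 that did not pass. Of 7 listed globins that were tested 3 fell (42.9% beside 23.9% of all genes). These were Hbb-y, Hbb-bh1 and Hbb-bh2, all from the beta cluster. Hbb-bt, the other adult beta-globin gene of this strain, had log2 levels of 2.24 and 4.71 in control, 3.59 and 4.65 at MCT 270 and 6.11 at MCT 330 (log2 fold change 2.63 ± 1.09, limma adjusted p = 0.125). Hba-a2 had 5.90 and 7.83, 6.80 and 7.35, and 8.05 (1.19 ± 0.82, adjusted p = 0.312). Without the control sample of replicates 2 and 3, Hbb-bt had a value of 3.87 and Hba-a2 one of 2.15. Only the MCT 270 samples estimate the spread in that fit. Hbb-b2, a symbol for the adult beta gene of another haplotype that was added after its values were seen, had -0.06 and 2.36, 1.64 and 2.98, and 4.78 (3.63 ± 1.12, adjusted p = 0.0654). In all of these the MCT 330 sample was the highest and control replicate 1 the lowest.

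Hbb-y, the embryonic epsilon-type chain, had log2 levels of -0.91 and -1.21 in control, -1.77 and -1.65 at MCT 270 and -3.80 at MCT 330. Its log2 fold change at MCT 330 was -2.74 ± 0.22 (limma adjusted p = 0.00875). Hbb-bh2 of the same cluster had a log2 fold change of -1.77 ± 0.19 (adjusted p = 0.00892) and the embryonic Hbb-bh1 -1.13 ± 0.20 (adjusted p = 0.0183). The Hbb-bh1 call ended with either MCT 270 sample left out (adjusted p = 0.053). The theta-type Hbq1b had a value of -0.67 ± 0.19 (adjusted p = 0.0563) and Hbq1a, well above background on 1 of 3 control arrays, one of 0.53 ± 0.20 (adjusted p = 0.107). Hba-x, the embryonic alpha-type chain, was not well above background on any array.

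Further erythroid genes were counted in 5 lists of 67 genes, of which 58 were tested. At MCT 330 against control 2 were called higher and 16 lower, a called share of 31% beside 33.4% of all genes, and the median log2 fold change was -0.31 beside -0.25. These shares lie close to the background. At MCT 270, 0 of 58 were called by limma's test, while 6 higher and 7 lower had an unadjusted p under 0.05, beside 18.6% of all genes with such a p. Between the doses 2 were called higher and 11 lower (22.4% beside 22.1%). The lists differed in level: in the control samples haem synthesis genes averaged 2.76 and 2.90 on the log2 scale, and erythroid regulators -2.15 and -1.92. Which liver cells carried these messages was not tested.

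Haem synthesis runs from the Alas enzymes to ferrochelatase, with transporters that move porphyrins. At MCT 330 the values of 13 of 13 genes were below 0 (median -0.55, beside -0.25 over all genes), and 3 were called lower (23.1% beside 23.9% of all genes). Cpox, coproporphyrinogen oxidase, fell by 1.47 on the log2 scale (SE 0.19, adjusted p = 0.0104), the porphyrin transporter Abcb6 by 1.22 (SE 0.19, adjusted p = 0.0148), and the mitochondrial transporter Abcb10 by 0.89 (SE 0.21, adjusted p = 0.0331). The Abcb10 call ended without control replicate 1 (adjusted p = 0.058) and with either MCT 270 sample left out (0.085). Uros, uroporphyrinogen synthase, had a value of -0.57 ± 0.19 (adjusted p = 0.0756). Alas1, the housekeeping form abundant in liver, had log2 levels of 5.74 and 6.96 in control, 6.96 and 6.71 at MCT 270 and 5.75 at MCT 330 (-0.60 ± 0.53, adjusted p = 0.419). The MCT 330 sample lay at the level of control replicate 1, and without that replicate the value was -1.21, with the spread estimated from the MCT 270 samples alone.

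Of 17 further genes of the red cell membrane and skeleton, 10 were tested. Rhag, Rhd and Tmod1 were not well above background on any array, and Sptb, Kel and Dmtn were so on 1 array each. Of the genes tested, 2 fell at MCT 330 (20% beside 23.9% of all genes) and the others did not pass. Aqp1, a water channel of red cells that sinusoidal and bile duct cells also express, fell by 1.77 on the log2 scale (SE 0.22, adjusted p = 0.0104). Icam4, a red cell adhesion protein that was well above background on 2 of 3 control arrays, fell by 1.05 (SE 0.25, adjusted p = 0.0364), a call that ended with quantile normalization (0.71 lower, adjusted p = 0.057), with normexp and quantile normalization (adjusted p = 0.321), without control replicate 1 (0.051) and with either MCT 270 sample left out (0.078). Cldn13 was well above background on 0 of 3 control arrays, 3 of 3 MCT 270 arrays and 1 of 3 MCT 330 arrays, and no fold against control is given.

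Among 15 erythroid regulators, 1 rose (6.67% beside 9.5% of all genes) and 5 fell (33.3% beside 23.9%) at MCT 330. Nfe2, a leucine zipper factor of the erythroid and megakaryocyte lines that binds the globin control regions, had log2 levels of -6.40 and -6.12 in control, -4.72 and -4.19 at MCT 270 and -2.36 at MCT 330. It was not well above background on any control array, so it passed the filter only through treated groups, where it is high. Its limma adjusted p of 0.00875 rests on those dim control signals and is no independent support. Its MCT 330 level was at least 7.60-fold higher than control. This bound sets the MCT 330 mean against, per control array, the higher of the probe's own signal and the lowest signal well above background. Epor, the erythropoietin receptor, had log2 levels of -1.34 and -1.37 in control, -2.37 and -2.62 at MCT 270 and -3.79 at MCT 330. It fell by 2.43 (SE 0.21, adjusted p = 0.00875). Zfpm1, the Gata1 partner Fog1, fell by 1.00 (SE 0.21, adjusted p = 0.0250) and Klf3 by 1.24 (SE 0.27, adjusted p = 0.0277), and both calls ended with either MCT 270 sample left out (0.067 and 0.052). Gata1, the master factor of erythroid genes, was not well above background on any control or MCT 270 array. At MCT 330 it had a level of -5.24, at least 1.03-fold higher than control (adjusted p = 0.0601) and at least 1.51-fold higher than MCT 270 (adjusted p = 0.109). Gata1 passed the filter only through MCT 330, so these p-values from limma rest on dim signals in the other groups.

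Of 13 tested genes of late erythroid maturation, 1 rose and 3 fell (30.8% called beside 33.4%). Hebp1, a haem-binding protein, fell by 1.41 (SE 0.18, adjusted p = 0.0108). Xpo7, a nuclear exportin, fell by 0.81 (SE 0.18, adjusted p = 0.0321) and Blvrb, a biliverdin reductase, by 0.72 (SE 0.19, adjusted p = 0.0424). Ube2o, a ubiquitin ligase that clears ribosomes and surplus globin during red cell maturation, rose by 0.82 (SE 0.21, adjusted p = 0.0407). The Xpo7, Blvrb and Ube2o calls ended with either MCT 270 sample left out (0.094, 0.118 and 0.099), and the Blvrb and Ube2o calls also without control replicate 1 (0.068 and 0.072). Without the control sample of replicates 2 and 3 the Blvrb call ended too (0.059), and Xpo7 lay at 0.050. With quantile normalization the Blvrb call ended as well (0.102), and with the mean of all probes the Xpo7 call did (0.106). Tfrc, the transferrin receptor that brings iron into erythroblasts, had values of -0.90 and -0.19 in control, 0.80 and 0.65 at MCT 270 and 0.11 at MCT 330 (0.66 ± 0.34 at MCT 330, adjusted p = 0.201). Tfrc was thus highest at MCT 270, where its difference of 1.27 ± 0.28 from control did not pass (adjusted p = 0.137). With the mean of all its probes the value at MCT 330 was 2.22 (limma adjusted p = 0.047), so its probes disagree. Without the control sample of replicates 2 and 3 the value of the probe used was 1.01, with the spread estimated from the MCT 270 samples alone.

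**Figure D3:**
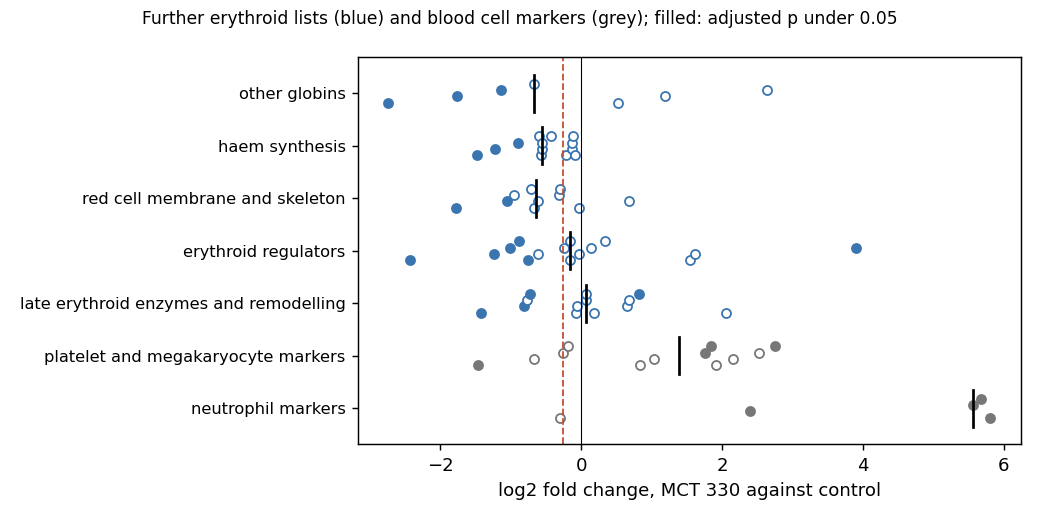
Log2 fold changes of MCT 330 against control (x axis) for the tested genes of 5 erythroid lists (blue) and of platelet and neutrophil markers (grey), 1 point per gene; filled points passed limma's test, black bars are list medians and the dashed line is the median of all genes. The haem synthesis points all lie below 0, and the neutrophil points S100a8 and S100a9 lie above 5.

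Genes that handle haem and iron released from red cells were read beside these. Of 16 in the list, 1 rose and 1 fell at MCT 330, a called share of 12.5% beside 33.4% of all genes. Hmox1, the haem oxygenase that opens the haem ring, had log2 levels of 0.42 and 0.89 in control, 0.50 and 0.76 at MCT 270 and 3.47 at MCT 330. It rose by 2.82 (SE 0.28, adjusted p = 0.00878). Hamp2, a hepcidin-family peptide, fell by 5.45 (SE 1.21, adjusted p = 0.0299), a call that ended without the control sample of replicates 2 and 3 (adjusted p = 0.066). Hp, the haptoglobin that binds free haemoglobin, had a value of 0.22 ± 0.23 (adjusted p = 0.481), the iron sensor Tfr2 one of -0.72 ± 0.20 (adjusted p = 0.0547) and ceruloplasmin, Cp, one of 0.74 ± 0.24 (adjusted p = 0.0709).

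Signals to erythroid precursors gave 1 rise and 1 fall among 5 tested (40% beside 33.4%). Gdf15, a stress cytokine that erythroblasts and injured hepatocytes can make, rose by 4.23 (SE 0.34, adjusted p = 0.00875). Kitl, the ligand of the Kit receptor, fell by 2.48 (SE 0.21, adjusted p = 0.00875). Bmp4 had a value of 0.67 ± 0.23 (adjusted p = 0.0791) and Kit one of -0.31 ± 0.33 (adjusted p = 0.503). Epo, the hormone erythropoietin, was well above background on 0 of 3 control arrays, 1 of 3 MCT 270 arrays and 1 of 3 MCT 330 arrays, and was not tested.

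Markers of other blood cells were read beside the globins. Of 12 platelet and megakaryocyte markers 3 rose at MCT 330 (25% beside 9.5% of all genes) and 1 fell (8.33% beside 23.9%). The called share was 33.3% beside 33.4%, and the median log2 fold change was 1.40 beside -0.25 over all genes. Their mean log2 level was -3.79 and -3.44 in the control samples, -3.36 and -3.20 at MCT 270 and -2.59 at MCT 330. Pf4 rose by 1.85 (SE 0.34, adjusted p = 0.0194). Gp5 was at least 2.53-fold and Itga2b at least 2.78-fold higher (limma adjusted p = 0.00875 and 0.0317). Neither was well above background on any control array, so both passed the filter only through treated groups, where they are high. Their p-values rest on dim control signals, and their rises add no independent support to the share that rose. Clec1b fell by 1.47 (SE 0.18), and which cells carried it was not tested. Of 5 neutrophil markers 4 rose (80% beside 9.5% of all genes), with a mean log2 level of -2.88 and -2.07 in control, -2.42 and -1.91 at MCT 270 and 1.36 at MCT 330. S100a8 rose by 5.81 (SE 0.49, adjusted p = 0.00875). Among 7 granulocyte precursor markers 2 fell (28.6% beside 23.9%), Ctsg by 1.92 (SE 0.26) and Mpo, which was not well above background on any MCT 330 array, to a level at least 3.05-fold lower. Proliferation genes had a mean log2 level of -2.26 and -0.69 in control, -2.84 and -2.75 at MCT 270 and -3.11 at MCT 330. Each marker in these lists was well above background on at least 1 array. The part of these cells in the erythroid values was not tested.

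The genes nearest in pattern were found by the root mean square difference of log2 levels over the 5 samples, each gene centred on its own mean. Around the median pattern of the 7 genes lay Klk1b21 (0.059), Depdc5 (0.063), Ptprn2 (0.065), Osm (0.065) and Ank (0.066). The 7 genes did not form a single pattern: Hbb-bs lay 2.03 and Hba-a1 1.60 from that median, Car1 0.79, and the other 4 between 0.15 and 0.33. A search around Hba-a1 alone, added after its values were seen, gave Hbb-bt (0.19), Prelid2 (0.21), Hbb-b2 (0.24), Cdr2 (0.30) and the platelet chemokine Ppbp (0.30). Ppbp had log2 levels of -4.27 and -2.34 in control, -3.06 and -2.58 at MCT 270 and -0.77 at MCT 330.

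Red cells are also rich in the miRNAs miR-451a and miR-144, made from a joint transcript, which were read on the separate miRNA arrays. Their mature sequences are shown with that of miR-223-3p, a myeloid miRNA set beside them, with the seed (bases 2 to 8) in capitals, from RefSeq on GRCm38.p6.
miR-451a: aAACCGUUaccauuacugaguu
miR-144-3p: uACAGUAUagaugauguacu
miR-144-5p: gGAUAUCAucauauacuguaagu
miR-223-3p: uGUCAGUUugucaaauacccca

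The 4 seeds differed from one another. miR-144-5p, miR-144-3p and miR-451a lie in this order on the plus strand at chr11:78073010-78073032, chr11:78073047-78073066 and chr11:78073186-78073207, with 119 bases between the last pair, and miR-223-3p lies at chrX:96242884-96242905. A further probe is shared by miR-486-5p and miR-3107-5p and cannot tell them apart. The 2 probes of miR-486-3p stayed under the minimum signal of 30 over background and were not tested.

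At MCT 330 the 4 erythroid probes all had higher values than control and none passed, beside 5.31% of 490 miRNAs called, 0.204% higher and 5.1% lower. All 4 had an unadjusted p under 0.05, beside 6.33% of miRNAs that were so and higher. These are not 4 independent results, since miR-144-3p, miR-144-5p and miR-451a come from a joint transcript. miR-144-3p had normalized log2 intensities of 10.87, 10.25 and 11.21 in control, 11.53, 10.87 and 11.86 at MCT 270 and 13.51, 13.36 and 11.31 at MCT 330. MCT 330 replicate 3 lay inside the range of MCT 270, and the other 2 lay above all arrays. The log2 fold change was 1.95 ± 0.54 (SE, n = 3 and 3; limma adjusted p = 0.0673).

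miR-451a, one of the brightest probes, had normalized log2 intensities of 13.17, 12.26 and 13.36 in control, 13.36, 12.50 and 13.51 at MCT 270 and 14.39, 14.39 and 13.91 at MCT 330. On this normalized scale the 3 MCT 330 arrays lay above all others. On the deposited scale its signal over background was 10175.5, 36960.5 and 18176 at MCT 330, and replicate 1 of that group lay below MCT 270 replicates 1 (10728) and 3 (14674.5). Its log2 fold change was 1.30 ± 0.35 (limma adjusted p = 0.0597). miR-144-5p had a log2 fold change of 1.29 ± 0.33 (adjusted p = 0.0543), the probe of miR-486-5p and miR-3107-5p one of 0.93 ± 0.28 (adjusted p = 0.0837), and miR-223-3p one of 1.23 ± 0.40 (adjusted p = 0.0990). miR-144-5p reached the minimum signal on 1 of 3 control arrays, 2 of 3 MCT 270 arrays and 3 of 3 MCT 330 arrays. It passed the filter only through MCT 330, where it is high, so its p-values are no independent support.

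Without MCT 330 replicate 3 all 4 erythroid probes passed, beside 15.5% of 490 miRNAs called in that fit, 4.69% higher, with miR-144-3p at 2.66 (limma adjusted p = 0.00544) and miR-451a at 1.46 (adjusted p = 0.0496). miR-223-3p then lay at 1.74 (adjusted p = 0.00623). Without MCT 270 replicate 1, miR-144-5p passed (adjusted p = 0.038), and without MCT 270 replicate 2, miR-451a did (0.041). On the deposited scale, miR-144-3p signal over background was 7470.5, 13693.5 and 2918.5 on the 3 MCT 330 arrays.

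At MCT 270 0 of the 4 passed (limma), 0 had an unadjusted p under 0.05, and the values ran from -0.16 for the miR-486-5p and miR-3107-5p probe to 0.64 for miR-144-3p, beside 26.7% of miRNAs called, 15.9% higher and 10.8% lower. Between the doses 0 of the 4 passed (adjusted p from 0.0530 to 0.132, all 4 with an unadjusted p under 0.05), beside 6.12% of miRNAs called, 1.22% higher and 4.9% lower. Higher miRNAs with such a p made up 13.3%. Without MCT 330 replicate 3, 3 of the 4 passed in this comparison, beside 11.6% of miRNAs called, 6.53% higher.

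**Figure D4:**
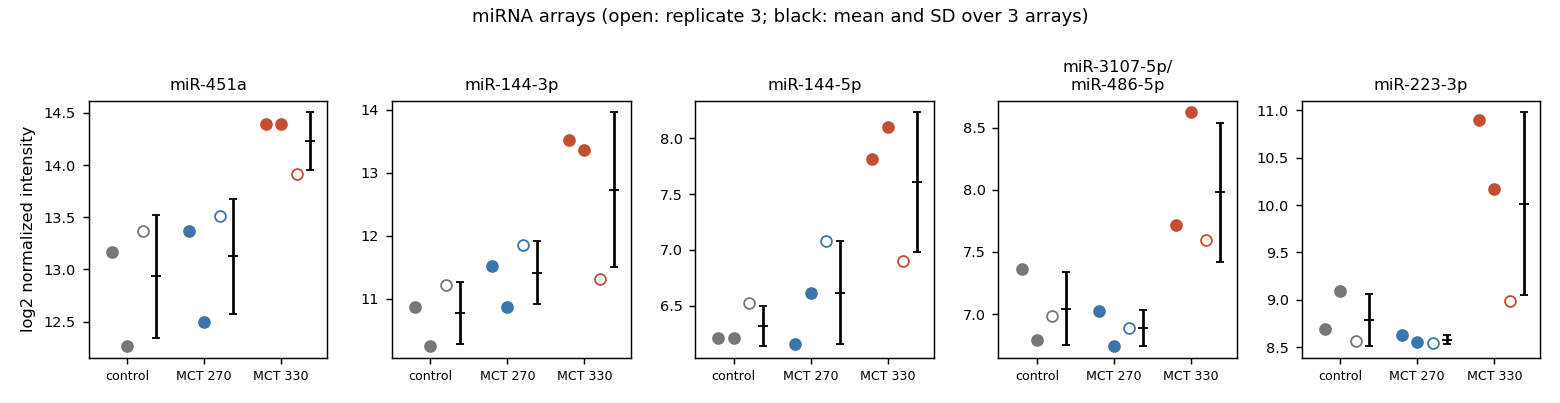
Normalized log2 intensity (y axis, a separate scale in each panel) of 4 erythroid miRNA probes and miR-223-3p on the 9 miRNA arrays, by group (x axis); open points are replicate 3 and black bars the mean and SD over 3 arrays. MCT 330 replicate 3 is the lowest of its group in each panel, with miR-144-3p at 11.31 against 13.51 and 13.36.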

How the data were processed

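The members and gene lists were chosen with earlier results of these data known. The mRNA arrays were scanned and read with Agilent Feature Extraction 11.0.1.1, per the submitters' processing notes, and the deposited intensity values are background-subtracted and detrended, per the file headers. The miRNA files hold the scanner's intensity with its background and a normalized ratio, both deposited by the authors, and their further processing is not given in the sources used here. Other deposited columns, such as the outlier and background marks, were used to leave out spots.

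For mRNA, the log2 of the processed signal was scaled by subtracting the 75th percentile of its array, and spots of a probe were averaged. A probe was kept where every array of some group had it well above background. Of 33258 systematic names, 21464 matched the name tables. The probe with the highest mean stood for a gene. Arrays whose mean spread was at most 1 times that of repeated spots were joined, and 173 spots that differed by more than 1 log2 unit in MCT 330 replicate 1 were left out. Groups were compared in a single limma 3.58.1 fit (R 4.3.3), with Benjamini-Hochberg adjustment over 24817 genes and a threshold of 0.05. No spot was saturated (0 spots), and the number of arrays limits the precision.

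For miRNA, normexp with an offset of 50 and quantile normalization were used, and 490 of 1122 mouse probes passed a minimum of 30 over background. The replicate numbers do not pair the groups, since the labels name a different mouse for each. Deviations of same-numbered mRNA arrays correlated at -0.0408 to 0.0404, and those of same-numbered miRNA arrays at -0.383 to 0.542. Named genes were the 9 members, up to 4 of each further list with the smallest p at MCT 330 against control, 8 genes named whatever their value (Hbb-bt, Hba-a2, Gata1, Tfrc, Alas1, Hmox1, Hp and Epo) and the 5 nearest patterns. Marker genes named were chosen after their values were seen. Both fits were tested on simulated data, and the alternatives are in the closing section. Some genes that the rule named are not reported here.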

Additional observations from a re-analysis of the deposited data

Results flagged for a closer look

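The difference between MCT 330 and MCT 270 passed limma's test for 19 of the genes named here, beside 22.1% of all genes tested. Most genes named from the further lists were picked by their p at MCT 330 against control. That comparison uses the same MCT 330 sample, so this number cannot be read against the share over all genes. Among the chosen genes the log2 difference was -2.43 for Car1, -1.17 for Tspo2 and -1.40 for Klf1. Among other globins it was -2.08 for Hbb-y, -1.55 for Hbb-bh2 and -1.05 for Hbb-bh1. In haem synthesis it was -1.13 for Cpox and -0.99 for Abcb6, and in the membrane list -1.16 for Cldn13, which was well above background on 1 of 3 MCT 330 arrays. Among regulators it was 2.10 for Nfe2 and -1.30 for Epor. In late maturation it was -1.41 for Hebp1, -1.02 for Xpo7, 1.04 for Ube2o and -0.81 for Blvrb. Among haem handling and signal genes it was 2.85 for Hmox1, 1.01 for Cp, 4.08 for Gdf15 and -1.53 for Kitl. All of these rest on the 1 MCT 330 sample, and none, like 0 of all genes tested (limma; 6248 and 7339 at an unadjusted p under 0.05), was called with either MCT 270 sample left out. MCT 330 and its scans cannot be told apart.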

How the results depend on the processing

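Car1 at MCT 330 against control was called in every alternative tried. Of the 7 genes, 4 were called at MCT 330 against control, and 1 was called with no filter on dim probes, 7 with the 9 arrays as separate samples, 7 with scan as a random block and 2 to 5 with 1 replicate or sample left out. Between the doses 3 were called, and 1 with quantile normalization, 0 with no filter (limma), 6 with 9 arrays, 7 with scan, 5 with MCT 330 replicate 1 as its own sample (chosen after seeing the data) and 0 to 4 on leaving out. At MCT 270 0 were called, and 1 with 9 arrays. Of the further erythroid genes 18 were called at MCT 330 against control, and 8 with no filter, 40 with 9 arrays, 44 with scan, 29 with replicate 1 on its own and 8 to 22 on leaving out; between the doses 13, and 0, 44, 46, 30 and 0 to 16. At MCT 270 they went from 0 to 4 with normexp, 3 with probes well above background on all 9 arrays, 22 with 9 arrays, 22 with scan and 6 with replicate 1 on its own. All genes moved with these settings: at MCT 330 against control 33.4% of all genes were called, and 11.3% with no filter, 73.1% with 9 arrays, 75.9% with scan, 55.7% with replicate 1 on its own and 20.1% with either MCT 270 sample left out. Between the doses these were 22.1%, and 0, 65.3%, 68.7%, 45.6% and 0, and 15.9% with quantile normalization. At MCT 270 they were 0 (limma; 4612 genes at an unadjusted p under 0.05), and 38.7% with 9 arrays, 36% with scan, 7.06% with replicate 1 on its own, 2.03% with normexp and 2.02% with probes well above background on all 9 arrays. The counts of further erythroid genes are of 58 tested. The lowest counts on leaving out came with either MCT 270 sample left out. Fits over 9 arrays count near-identical arrays as independent. Of the erythroid miRNAs 0 were called at MCT 330 by limma and 1 with median scaling. With the authors' normalized values 2 were called, and 0 to 4 on leaving out. The shares of all miRNAs called were 5.31%, 8.98%, 7.96% and 2.45% to 15.5%. Between the doses the counts with these alternatives were 1, 2 and 0 to 3, beside 16.7%, 14.3% and 0.408% to 11.6% of all miRNAs.

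The replicate block on 9 arrays called 1, 6 and 6 of the 7 genes at MCT 270, at MCT 330 and between the doses. Of the further genes 21, 35 and 43 were called. The shares of all genes called in that fit were 37.8%, 72.5% and 64.6%. The block gave 0 of the erythroid miRNAs at MCT 330, beside 3.67% of all miRNAs. The labels name a different mouse for each replicate of each group, so the numbers do not pair the samples.

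Signs turned for some values that had not passed. At MCT 270 the fits over 9 arrays (block and scan included) gave Hba-a2 -0.015, Uros 0.0030, Gata1 -0.00548 and Bmp4 0.025. Quantile normalization gave Uros 0.014, Gata1 -0.24 and Hebp1 0.067, and normexp gave Hebp1 0.085 and Bmp4 0.038. Between the doses quantile normalization gave Hbq1b 0.029, normexp gave 0.0037, and the mean of all probes gave Tfrc 0.64. Leaving out a replicate at MCT 270 moved Hba-a1 from -0.21 to 1.97, Alas2 from -0.46 to 0.0097, Car1 from -0.46 to 0.19, Tspo2 from -0.53 to 0.013, Hbb-bh1 from -0.18 to 0.019, Hbb-bt from -0.59 to 1.88, Hba-a2 from -0.75 to 1.18, Uros from -0.047 to 0.036, Alas1 from -0.13 to 1.09, Gata1 from -0.17 to 0.66 and Hebp1 from -0.022 to 0.015. It moved Hmox1 from -0.26 to 0.21, Hp from -0.035 to 0.22, Gdf15 from -0.16 to 0.47, Bmp4 from -0.16 to 0.15, the miR-486-5p and miR-3107-5p probe from -0.29 to 0.00027 and miR-451a from -0.14 to 0.51. At MCT 330 Alas1 went from -1.21 to 0.0100. The cause was not tested.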

Other observations

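Markers of the resident liver cells that line and clear the sinusoids fell at MCT 330 against control. Of 8 macrophage markers 6 fell, beside 23.9% of all genes (limma, Benjamini-Hochberg adjusted p under 0.05), and their mean log2 level was 1.00 and 0.83 in the control samples, 0.40 and 0.44 at MCT 270 and -0.35 at MCT 330. Of 6 sinusoidal endothelial markers 5 fell, beside the same 23.9%, with mean levels of 1.73 and 1.74, 0.45 and 0.30, and -0.10. Both lists were chosen with earlier results known.

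By the same measure of likeness over 5 samples, the genes nearest to Hbb-bs were Psrc1 (0.41), Dnah2 (0.42), Serpinb10 (0.46), Slfn3 (0.46) and Ctsj (0.48), none of them a globin. Nearest to Car1 were Cpsf4l (0.13) and Hsd3b2 (0.16), to Tspo2 Hlx (0.037) and Pxt1 (0.042), and to Alas2 Oas3 (0.066) and Pdia5 (0.068). Klf1 had Olfr75-ps1 (0.063) and Ceacam11 (0.065) as its nearest genes, and Slc4a1 had Avpr2 (0.023) and Prp2 (0.037).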
